A study of Mus musculus with 21 samples.

Results

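The choroid plexus is a fold of secretory epithelium over capillary-rich stroma that hangs into the ventricles of the brain and makes the cerebrospinal fluid. Its epithelial cells secrete transthyretin in bulk, move water, bicarbonate and potassium across their apical membrane, and take up folate for the brain. The plexus of the fourth ventricle lies against the underside of the cerebellum. The genes described here were 10 genes known for high expression in this epithelium: Ttr, Folr1, Kl, Aqp1, Clic6, Otx2, Kcnj13, Slc4a5, Enpp2 and Prlr. They were chosen by name, with earlier results of these data known, and every probe set annotated to 1 of these symbols alone was used. This gave 13 probe sets of 8 genes among the 45037 probe sets tested, with 4 for Ttr, 2 each for Kl and Clic6, and 1 each for Folr1, Aqp1, Otx2, Kcnj13 and Slc4a5. No probe set was assigned to Enpp2, the secreted lysophospholipase autotaxin, or to Prlr, the prolactin receptor, in the annotation used. Their expression is not analysed here.

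RNA was hybridised to Affymetrix mouse genome arrays, 1 array per sample, and all mice had the 129SvJ strain background. Cstb-/- mice lack cystatin B, an inhibitor of lysosomal cysteine proteases, throughout the body, and were compared with wild type mice. Whole cerebella were taken at postnatal day 7 (P7) from 4 Cstb-/- mice (arrays 1, 2, 3 and 5) and 4 wild type mice (1 to 4), and at P30 from 3 of each (1 to 3), and the labels call the Cstb-/- mice pre-symptomatic at P7 and symptomatic at P30. Cerebellar granule cells were cultured from P5 pups after the meninges were removed, treated with cytosine arabinoside to hold back dividing glia, and harvested after 2 days in vitro, with 3 Cstb-/- arrays (1 to 3) and 4 wild type arrays (4, 5, 7 and 8). At P7, Cstb-/- 1, 2 and 3 and wild type 3 were labelled male and the other 4 arrays female, and at P30 Cstb-/- 1 alone was labelled female, although the study's methods describe the P30 mice as male. The study's methods give 5 hybridised samples per genotype at P7. They describe a principal component check of whether samples of a genotype grouped together. From the final analysis they left out 1 P7 sample of each genotype and 1 Cstb-/- culture. The part of that choice in the separation of the genotypes was not tested. The labels name no batch and do not say whether a sample was 1 animal or a pool, so p-values measure only the spread between these samples.

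All values are log2 signals centred on the median of each probe set within its experiment, so the level of a gene and its detection cannot be read, and the labelled tissue could not be checked against the levels of its markers. Centring also puts the middle arrays of an even number at equal distances on either side of 0. The deleted gene, Cstb, was lower on every Cstb-/- array than on every wild type array in all 3 experiments, with log2 differences of -3.10 and -2.31 for the Cstb probe sets in the P7 cerebella. The control probe sets for 18S rRNA averaged 3.39 on P7 Cstb-/- 5 and between -0.40 and 0.64 on the other 7 P7 arrays, and the part of this array in the results is given below. Xist, the RNA of the inactive X chromosome, was checked against the labelled sex. Its probe set 1427262_at read 3.42 to 3.98 on the P7 arrays labelled female and -3.60 to -3.42 on those labelled male, but -0.08 to 0.15 on all 6 P30 arrays, with -0.03 on Cstb-/- 1, so the female label of that array is not borne out. In the cultures it read -6.89 on Cstb-/- 2, labelled female, and -6.78 on wild type 4, labelled male, and -0.23 to 1.08 on the other 5, with Cstb-/- 1 and wild type 7 among them labelled male, and no result given for the cultures rests on their labelled sex. P7 Cstb-/- 1 and P30 Cstb-/- 2 stood apart from the other Cstb-/- arrays of their age on the choroid plexus genes, and results are given with and without them.

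Upstream sequences were at hand (RefSeq, GRCm38.p6) for 6 of the 10 genes, in 11 windows of 250 bases before an annotated start. Prlr, which has no values here, was among the 6. The windows were read for short motifs because the values of most of the measured genes went together over the arrays. The sequences are shown for Kcnj13, Aqp1 and Slc4a5, the genes with 1 such window whose probe set was lower than on every wild type array on P7 Cstb-/- 2, 3 and 5. Those of Ttr, Folr1, Clic6 and Enpp2 were not in the table. Capitals mark the matches, on either strand, to TATAAA (the TATA box), GGGCGG (the core of a GC box) and TAATCC (the core bound by OTX proteins). The Kcnj13 window is chr1:87394730-87394979 on the minus strand, that of Aqp1 is chr6:55336049-55336298 on the plus strand, and that of Slc4a5 is chr6:83237125-83237374 on the plus strand.
Kcnj13: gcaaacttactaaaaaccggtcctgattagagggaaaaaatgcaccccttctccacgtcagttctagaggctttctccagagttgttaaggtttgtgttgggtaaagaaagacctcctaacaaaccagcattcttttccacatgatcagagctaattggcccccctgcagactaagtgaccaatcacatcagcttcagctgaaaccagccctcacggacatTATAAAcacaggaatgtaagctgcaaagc
Aqp1: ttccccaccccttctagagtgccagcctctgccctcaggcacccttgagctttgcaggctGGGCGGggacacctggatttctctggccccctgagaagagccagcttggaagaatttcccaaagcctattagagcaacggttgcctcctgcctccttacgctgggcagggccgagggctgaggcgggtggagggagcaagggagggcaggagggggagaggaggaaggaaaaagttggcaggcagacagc
Slc4a5: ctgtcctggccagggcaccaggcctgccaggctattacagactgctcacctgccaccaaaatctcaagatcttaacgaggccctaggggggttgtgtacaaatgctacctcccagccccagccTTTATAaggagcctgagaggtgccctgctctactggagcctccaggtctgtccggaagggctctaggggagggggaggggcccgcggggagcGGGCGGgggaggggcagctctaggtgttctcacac
The Kcnj13 match to TATAAA began 29 bases before the start of the gene. A match to TATAAA was in 3 of the 11 windows (Kcnj13, Otx2 and Slc4a5) and in 12.4% of all 32851 windows of this length in the table. GGGCGG was likewise in 3 of the 11 (Aqp1, Kl and Slc4a5) and in 32.7% of all windows. TAATCC was in 1 of the 11, a window of Otx2 itself, and in 6.25% of all. These are matches of letters and show no binding.

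In the P7 cerebella, 12 of the 13 choroid plexus probe sets had a lower mean in Cstb-/- than in wild type mice, with differences from -4.24 for Ttr to 0.17 for the second Kl probe set. The median over the 8 genes was -1.67 log2 units, beside 0.01 over all 18193 genes. On 9 of the 13 probe sets, of Ttr, Folr1, Clic6, Kcnj13 and Slc4a5, all 4 Cstb-/- arrays lay below all 4 wild type arrays, which was so for 2.84% of all probe sets. None of the 13 passed the test (limma, fold of at least 1.3 and adjusted p under 0.05), which 0.00666% of all probe sets did, namely 2 of Cstb and 1 of Sulf1. At an unadjusted p under 0.05, 11 of the 13 were lower, against 4.99% of all probe sets. The methods' t-test called 0 of the 13 when adjusted over all probe sets (0.00222% of all), and 5 when the adjustment covered those with a fold of at least 1.3 (0.451% of all). That second set was picked by the same difference that was then tested, so its adjusted p-values cannot be taken at face value. In whole cerebella, a different amount of choroid plexus in the dissected tissue, fewer choroid plexus cells in the mouse and less of these RNAs per cell cannot be told apart.

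Ttr encodes transthyretin, the carrier of thyroxine and retinol-binding protein that makes up much of the protein secreted by the plexus. Its probe set 1455913_x_at read -0.10, -3.63, -6.13 and -6.52 on Cstb-/- 1, 2, 3 and 5, and 0.20, 0.10, 0.10 and 0.17 on wild type 1 to 4. The first Cstb-/- array thus lay close beneath the wild type arrays and the other 3 far beneath them, with no overlap between the genotypes. Relative to the wild type mean, the signal was 1.18-fold lower on Cstb-/- 1, 13.7-fold on 2, 77.3-fold on 3 and 101-fold on 5. The other Ttr probe sets kept this order of the Cstb-/- arrays, at -0.09, -4.28, -5.66 and -5.74 for 1451580_a_at. The wild type arrays of that probe set read 0.23, 0.17, 0.09 and 0.39. For 1454608_x_at and 1459737_s_at, Cstb-/- 1 was at -0.02 and -0.06 and the other 3 between -6.15 and -3.41, with all wild type arrays between 0.02 and 0.18. All 4 probe sets report 1 transcript and are not separate evidence. The differences were between -4.24 (SE 1.09) and -3.66 (SE 0.95), with limma adjusted p-values of 0.278 to 0.332, and the SD of the Cstb-/- arrays (2.57 to 2.96, n = 4) was over 20 times that of the wild type arrays (0.04 to 0.13, n = 4).

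Folr1 encodes the folate receptor that the plexus uses to bring folate into the cerebrospinal fluid. Its values were -0.20, -2.37, -2.86 and -2.13 on Cstb-/- 1, 2, 3 and 5 and 0.31, 0.26, 0.20 and 0.61 on wild type 1 to 4. Again Cstb-/- 1 lay just under the wild type arrays, while the other 3 were 5.58-fold to 9.26-fold below their mean. The difference was -2.24 (SE 0.44, limma adjusted p = 0.219), and the exact permutation test of this probe set alone gave a 2-sided p = 0.0286, the smallest that 4 arrays against 4 allow and the value for each of the 9 probe sets without overlap. Kl encodes klotho, the co-receptor of the hormone FGF23, and its 2 probe sets did not go together. Probe set 1423400_at read 0.10, -0.51, -0.03 and -0.46 against -0.04, 0.31, 0.03 and 0.34, a difference of -0.38 (SE 0.15, limma adjusted p = 0.482). Probe set 1451892_at read -0.08, -0.13, 0.21 and 0.41 against 0.08, -0.11, 0.08 and -0.33. The genotypes overlapped on both.

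Aqp1 is the water channel of the apical membrane. It read 0.24, -2.05, -2.13 and -2.13 on Cstb-/- 1, 2, 3 and 5 and 0.65, 0.56, -0.24 and 0.62 on wild type 1 to 4. Here the genotypes overlapped, since Cstb-/- 1 lay above wild type 3, which was itself the lowest wild type array, and Cstb-/- 2, 3 and 5 agreed closely with each other. The difference was -1.91 (SE 0.46, limma adjusted p = 0.292; exact permutation p = 0.0571). Kcnj13, the inward rectifier potassium channel Kir7.1, read -0.03, -1.89, -2.07 and -1.78 against 0.35, 0.31, 0.03 and 0.25, which left no overlap and the same gap beneath Cstb-/- 1. Its difference was -1.68 (SE 0.36, limma adjusted p = 0.246).

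Clic6 belongs to the chloride intracellular channel family. Its probe set 1454866_s_at read -0.24, -2.42, -2.27 and -2.66 on the Cstb-/- arrays and 0.37, 0.24, 0.31 and 0.67 on the wild type arrays, and 1434165_at read -0.10, -0.45, -1.12 and -1.03 against 0.48, 0.10, 0.14 and 0.71. Neither showed overlap, but Cstb-/- 2 was as low as 3 and 5 on the first probe set and between them and Cstb-/- 1 on the second. The differences were -2.29 (SE 0.42, limma adjusted p = 0.206) and -1.03 (SE 0.22, limma adjusted p = 0.241). Slc4a5, a sodium bicarbonate cotransporter, had the smallest difference among the probe sets without overlap, -0.60 (SE 0.11, limma adjusted p = 0.198), from -0.10, -0.68, -0.53 and -0.44 against 0.22, 0.18, 0.10 and 0.15. Otx2, the homeodomain factor needed for the plexus to form and persist, read -0.25, 0.25, -2.08 and -0.41 against 0.91, 0.28, -0.72 and 0.67. Only Cstb-/- 3 was low for Otx2, Cstb-/- 2 was among the wild type arrays, and the difference of -0.91 (SE 0.46, limma adjusted p = 0.563) was within the spread.

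**Figure D1:**
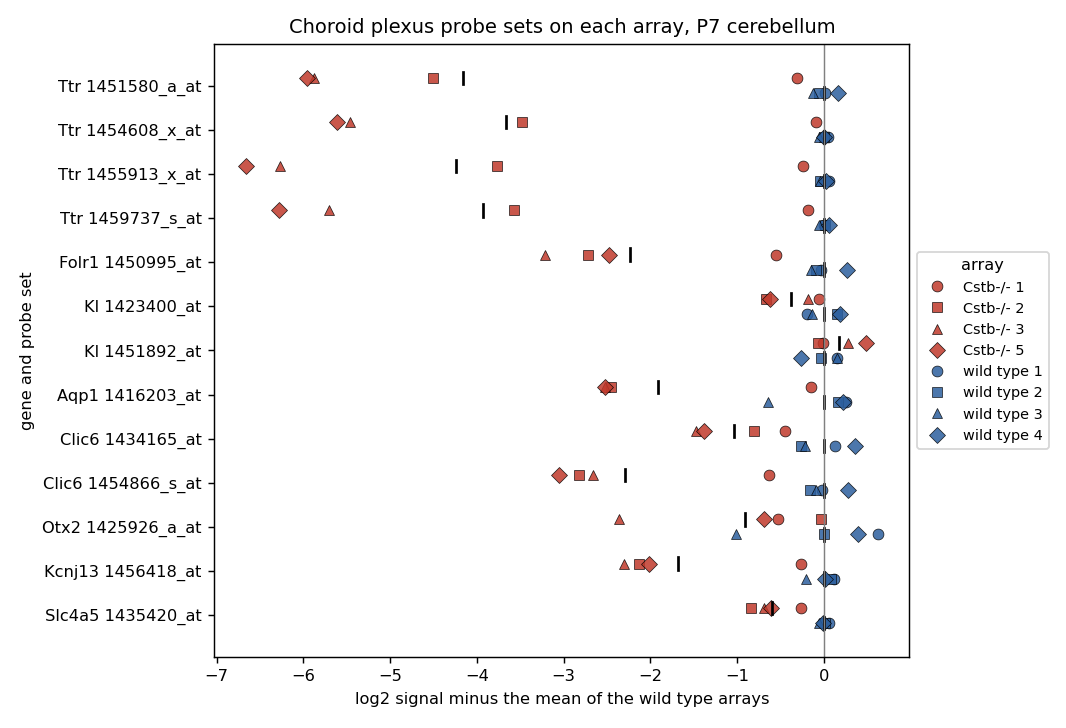
The 13 choroid plexus probe sets in the P7 cerebellum, 1 point per array (red, 4 Cstb-/-; blue, 4 wild type; shape gives the array), as log2 signal minus the mean of the wild type arrays, with a black bar at each group's mean. On 9 probe sets all red points lie left of all blue points, and Cstb-/- 1 (red circle) lies beside the wild type arrays, while Cstb-/- 2, 3 and 5 reach down to -6.66 for Ttr.

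Counted array by array, 9, 11, 11 and 11 of the 13 probe sets on P7 Cstb-/- 1, 2, 3 and 5 were below every wild type array, where 18.5%, 17.9%, 21.7% and 26% of all probe sets were. Being more than 1 log2 unit below every wild type array was rare over the whole array. On Cstb-/- 2 it held for 21 probe sets in all (0.0466%), of which 8 were of the choroid plexus genes, 9 of 36 further epithelial genes listed below and 2 of Cstb. On Cstb-/- 3 it held for 24 (0.0533%), of which 10 were choroid plexus probe sets, 10 of the further epithelial genes and 2 of Cstb. On Cstb-/- 5, the array with the high 18S signal, it held for 41 (0.091%), of which 9, 10 and 2 belonged to these sets. On Cstb-/- 1 it held for 28 (0.0622%), with 2 of Cstb and 0 of either choroid plexus set. Nearly all of the probe sets that were this far below wild type on Cstb-/- 2 and 3 were thus of these listed genes or of the deleted gene itself. Both gene sets were chosen with earlier results of these data known, so this is a description and no independent support.

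Leaving out 1 array decided how many choroid plexus probe sets passed the test at P7. Without Cstb-/- 1, 9 of the 13 were called lower (0.0844% of all probe sets, 38 in number, all lower), and without any of the other 7 arrays, Cstb-/- 5 included, 0 were called (0.00666% to 0.00888% of all). The 9 were the 4 of Ttr (-5.57 to -4.85), Clic6 1454866_s_at (-2.85, SE 0.12), Folr1 (-2.80, SE 0.16), Aqp1 (-2.50, SE 0.19), Kcnj13 (-2.15, SE 0.10) and Slc4a5 (-0.71, SE 0.08), with limma adjusted p-values between 5.05e-06 and 0.00836. Clic6 1434165_at, Otx2 and both Kl probe sets did not pass. Another 12 of the 38 were probe sets of further epithelial genes, among them Ecrg4, Calml4, Sostdc1 and Kcne2, and 2 were of Cstb. Since that array was set aside for its values on these genes, this fit describes the other 7 arrays and is no test of genotype.

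The labelled sex was uneven between the genotypes, and with sex as a covariate 4 of the 13 were called lower (Ttr 1451580_a_at, Folr1, Clic6 1454866_s_at and Slc4a5), where 1.99% of all probe sets were. Within the arrays labelled male, 3 Cstb-/- against 1 wild type, Ttr differed by -3.44 to -2.96, Folr1 by -2.01 and Otx2 by 0.03. Within those labelled female, 1 Cstb-/- against 3, Ttr differed by -6.68 to -5.63, Folr1 by -2.53 and Otx2 by -1.03. Ttr, Folr1, Aqp1, Clic6, Kcnj13 and Slc4a5 were thus lower in Cstb-/- within either sex, but each comparison rests on 1 array of 1 genotype. For Aqp1 the male difference was -1.07, taken against wild type 3, which itself lay below Cstb-/- 1. The sign of the Otx2 difference was not the same in both sexes.

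In the P30 cerebella all 13 differences were below 0, as were 53% of all, and the median over the 8 genes was -0.77 beside 0.00 over all genes. None passed the test, which 0.144% of all probe sets did, and on none did all Cstb-/- arrays lie below all wild type arrays, as they did on 6.25% of all. At an unadjusted p under 0.05, the 4 Ttr probe sets were lower, beside 3.55% of all probe sets, and the methods' t-test called 0 under either adjustment (0.00222% and 0.466% of all). With 3 arrays against 3 the exact permutation test cannot go below p = 0.1.

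Ttr 1455913_x_at read -7.69, 0.60 and -7.01 on P30 Cstb-/- 1, 2 and 3, and 0.35, -0.35 and 0.46 on wild type 1 to 3. Cstb-/- 1 and 3 were 230-fold and 144-fold below the wild type mean, and Cstb-/- 2 lay above every wild type array. The other 3 Ttr probe sets showed the same split, with -7.11 to -5.52 on Cstb-/- 1 and 3, 0.42 to 0.85 on Cstb-/- 2 and -0.48 to 0.79 on the wild type arrays. The differences of the 4 probe sets were -4.85 to -3.80 with SEs of 1.49 to 1.78 and limma adjusted p-values of 0.565 to 0.602. Signs of RNA quality differed on the same arrays. The 3' minus 5' log2 value of the actin control probe sets was 0.0895 and 0.0805 on Cstb-/- 1 and 3, -0.021 on Cstb-/- 2 and -0.017 to 0.021 on the wild type arrays, and that of the Gapdh controls was 0.038 and 0.057, -0.013, and -0.0054 to 0.0062. At P7 the actin value was -0.054, -0.012, 0.0018 and 0.031 on Cstb-/- 1, 2, 3 and 5. On the P7 wild type arrays it was -0.020 to 0.025. The Gapdh value was -0.0019, 0.011, -0.022 and -0.0038 on the same Cstb-/- arrays and -0.081 to 0.026 on the P7 wild type arrays. The part of RNA quality in the Ttr values was not tested at either age.

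At this age the wild type arrays also spread more on most of the other genes, with SDs of 0.73 to 1.23 (n = 3) for Folr1, Kl 1423400_at, Aqp1, Clic6 1454866_s_at, Kcnj13 and Slc4a5, against 0.05 to 0.43 (n = 4) at P7. Folr1 read -1.49, 1.63 and -1.29 on Cstb-/- 1 to 3 and 0.36, -0.36 and 1.59 on wild type 1 to 3, so the highest Cstb-/- and the highest wild type array were alike. Kl 1423400_at, which differed little at P7, read -1.82, 1.38 and -2.02 against 0.55, -0.55 and 1.34. The other Kl probe set was nearly flat, between -0.13 and 0.17 on all 6 arrays. Clic6 1454866_s_at read -1.96, 1.5 and -2.0 against 0.22, -0.22 and 1.21, and 1434165_at read -1.28, 0.98 and -1.48 against 0.11, -0.11 and 0.63. In each of these, Cstb-/- 1 and 3 were the lowest arrays and wild type 2 the next, with the flat Kl probe set as the exception.

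The channels and the transporter followed the same order of arrays. Aqp1 read -0.89, 1.75 and -0.36 against 0.36, -0.53 and 1.91, and here wild type 2 was below Cstb-/- 3. Kcnj13 read -0.81, 1.09 and -1.34 against 0.36, -0.36 and 1.45. Slc4a5 read -0.75, 1.47 and -0.78 against 0.24, -0.24 and 1.41. Wild type 3 and Cstb-/- 2 were the highest arrays for all 3 genes. Otx2 spread less, with -0.81, 0.77 and -0.16 against 0.16, -0.52 and 0.98. The differences ran from -1.27 for Kl 1423400_at to -0.28 for Otx2 among the probe sets other than those of Ttr and Kl 1451892_at, each smaller than 2 of its SEs.

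**Figure D2:**
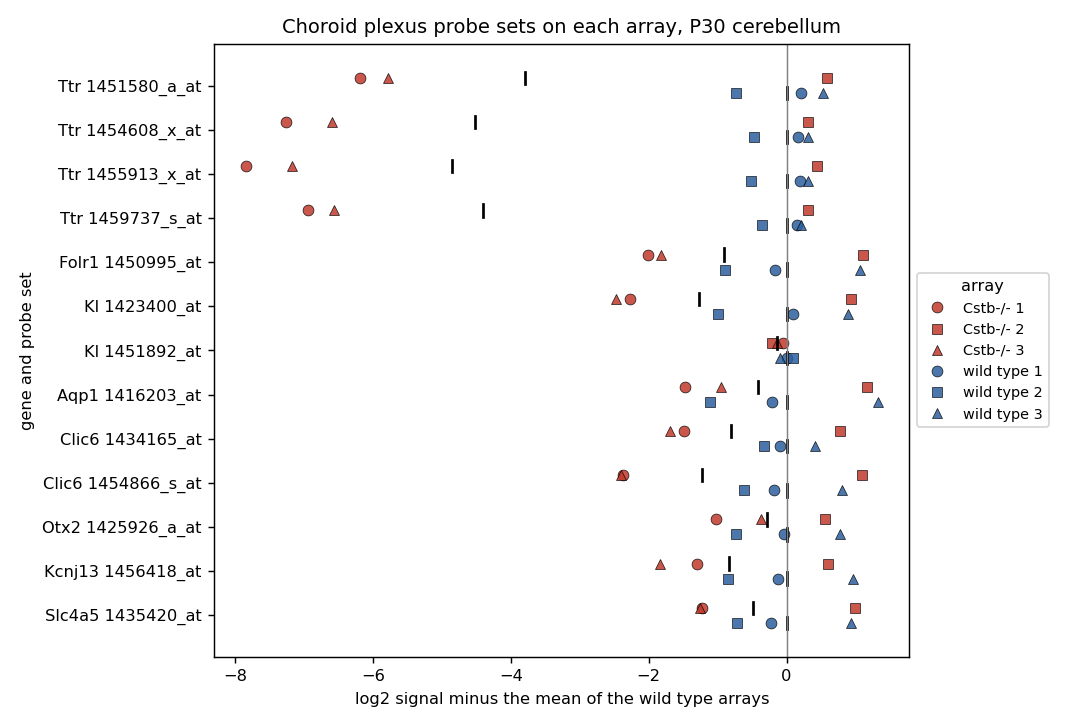
The 13 choroid plexus probe sets in the P30 cerebellum, 1 point per array (red, 3 Cstb-/-; blue, 3 wild type), drawn as for P7. Cstb-/- 1 (circle) and 3 (triangle) lie at the left, down to -7.84 for Ttr, and Cstb-/- 2 (square) lies at the right with wild type 3, except that Kl 1451892_at shows no such split and that wild type 2 lies left of Cstb-/- 3 for Aqp1 and Otx2.

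On P30 Cstb-/- 1 and 3, 12 and 11 of the 13 probe sets were below every wild type array, where 25.2% and 28.4% of all probe sets were, and on Cstb-/- 2 it was 1 of the 13, beside 25.1% of all. More than 1 log2 unit below every wild type array were 12 probe sets in all (0.0266%) on Cstb-/- 1, of which 8 were choroid plexus probe sets and 2 were of Cstb. On Cstb-/- 3 there were 14 (0.0311%), of which 7 were choroid plexus probe sets, 4 of the further epithelial genes and 2 of Cstb, and on Cstb-/- 2 there were 7 (0.0155%), with 0 of the choroid plexus genes. Without Cstb-/- 2, 6 of the 13 were called lower (0.0377% of all probe sets, 17 in number), namely the 4 of Ttr (-7.51 to -5.99, SE 0.18 to 0.32) and the 2 of Clic6 (-2.38, SE 0.34, and -1.59, SE 0.19), with limma adjusted p-values between 3.99e-06 and 0.0480. As at P7, the array was set aside for its values on these genes, so this is no test of genotype. Without any other P30 array 0 were called (0.00444% to 0.0111% of all). Without Cstb-/- 1, the array whose female label was not borne out, Ttr differed by -3.36 to -2.60 and Folr1 by -0.36, while Aqp1 differed by 0.11 and Otx2 by 0.09.

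**Figure D3:**
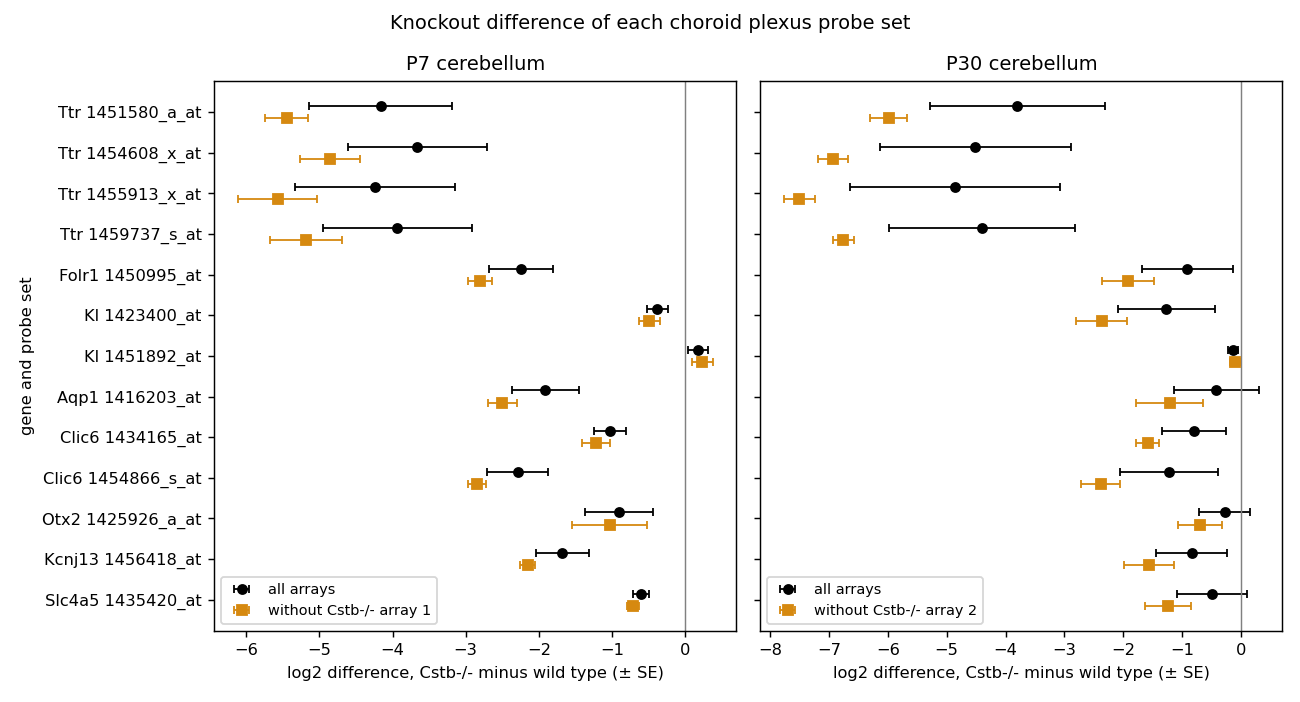
Difference between Cstb-/- and wild type in log2 signal for each choroid plexus probe set, with its SE from limma, in the P7 cerebellum (left) and the P30 cerebellum (right), over all arrays (black) and without the Cstb-/- array that stood apart (orange). Without that array the differences of Ttr go from between -4.24 and -3.66 to between -5.57 and -4.85 at P7, and from between -4.85 and -3.80 to between -7.51 and -5.99 at P30, and most SEs are smaller.

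Whether the Cstb-/- difference itself changed with age was tested in 1 fit over all arrays. None of the 13 probe sets passed for P7 against P30, where 0.124% of all probe sets did, and 0 were below an unadjusted p of 0.05, where 7.78% of all were. For Ttr 1455913_x_at the difference between the ages was 0.62 (SE 2.25), and for Aqp1, the member with the lowest adjusted p, it was -1.49 (SE 0.82, limma adjusted p = 0.688). The SEs leave room for differences of several log2 units in Ttr.

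A further 36 genes known from choroid plexus epithelium were measured besides the 8. These and the lists of other cells below were also chosen with earlier results of these data known. In the P7 cerebella 30 of them were lower and 6 higher, the median was -0.23, 19 were lower at an unadjusted p under 0.05 (10.9% of all genes passed in either direction), and 1 passed the test, which 0.022% of all genes did. This was Kcne2, a potassium channel subunit of the apical membrane, which read -0.44, -1.96, -2.10 and -1.83 on Cstb-/- 1, 2, 3 and 5 and 0.84, 0.73, 0.44 and 1.17 on wild type 1 to 4, a difference of -2.38 (SE 0.31, limma adjusted p = 0.0433). Its call was lost without any 1 of the other 7 arrays and kept without Cstb-/- 1, when 6 of the 36 passed (0.126% of all genes). Calml4, a calmodulin-like gene, had the largest difference of the list, -2.39 (SE 0.41, limma adjusted p = 0.132), from -0.34, -2.44, -2.71 and -2.32 against 0.34, 0.36, 0.36 and 0.70. Both had the pattern of Ttr and Kcnj13, with Cstb-/- 1 beneath but near the wild type arrays. The highest differences in the list were 0.06 for Ace and 0.09 for Epn3. On Cstb-/- 1, 21 of the 36 genes lay below every wild type array, as did 23, 23 and 20 on Cstb-/- 2, 3 and 5, where 18.1%, 18.5%, 21.8% and 26% of all genes did. At P30, 33 of the 36 were lower, with a median of -0.15, and 0 passed, where 0.291% of all genes did (2 had an unadjusted p under 0.05, beside 7.79% of all genes). There 24, 4 and 29 of the 36 were below every wild type array on Cstb-/- 1, 2 and 3, beside 22.9%, 25.8% and 25.7% of all genes.

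Of 14 genes for ion transport in the plexus that many other cells also use, 7 were lower and 7 higher at P7, with a median of -0.02 and none past the test. Slc4a2, the basolateral anion exchanger, had the lowest difference, -0.56 (SE 0.15, limma adjusted p = 0.253), followed by the carbonic anhydrase gene Car14 at -0.41 (SE 0.11, limma adjusted p = 0.289), and the highest were Kcnq1 at 0.29 and Clcn2 at 0.14. None of the lists for neighbouring cells had a gene past the test in the P7 cerebella. Without Cstb-/- 1, Slc4a2 of the ion transport list and Mlf1 of the ependyma and cilia list were called lower (0.126% of all genes). None of the other neighbouring lists had a call in that fit, which is no test of genotype. The list medians at P7 were -0.05 for 22 genes of ependyma and cilia, -0.05 for 20 of meninges and stroma, 0.03 for 15 of endothelium, 0.03 for 10 of border macrophages and 0.01 for 5 of red blood cells. At an unadjusted p under 0.05, where 10.9% of all genes were in either direction, 5 of the 14 ion transport genes were lower and 1 higher. Of the neighbouring lists, 6 ependyma genes, 6 of meninges and stroma, 3 of border macrophages, 1 of endothelium and 1 of red blood cells were lower, and 1 of endothelium was higher. The lowest gene of the first was Dynlrb2, a dynein light chain of cilia, at -0.74 (SE 0.14, limma adjusted p = 0.135), and of the second Ogn, a matrix proteoglycan, at -0.46 (SE 0.13, limma adjusted p = 0.316). The means of the meninges and stroma list were between -0.20 and 0.04 on the Cstb-/- arrays and between -0.03 and 0.13 on the wild type arrays, and those of the ependyma list between -0.12 and 0.08 and between 0.02 and 0.12. By comparison, the mean of the 8 choroid plexus genes was -0.07, -1.53, -2.12 and -1.84 on Cstb-/- 1, 2, 3 and 5 and between -0.04 and 0.40 on the wild type arrays. At P30 it was -1.77, 1.15 and -1.64 on Cstb-/- 1 to 3 and 0.29, -0.34 and 1.18 on wild type 1 to 3.

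Genes of other cerebellar cells had mostly higher values in Cstb-/- at P7, without the split among the Cstb-/- arrays. Of 13 oligodendrocyte genes, 12 were higher (median 0.35, 11 at an unadjusted p under 0.05 beside 10.9% of all genes, none past the test), with list means of 0.08 to 0.49 on all 4 Cstb-/- arrays, Cstb-/- 1 included, and -0.38 to -0.06 on the wild type arrays. The myelin gene Mog had the highest difference, 1.20 (SE 0.22, limma adjusted p = 0.132), and the lowest were Olig2 at -0.007 and Olig1 at 0.08. Of 13 granule neuron genes, 10 were higher (median 0.17), 5 of them at an unadjusted p under 0.05, and none passed the test. Gabra6 was highest at 0.88 (SE 0.16, limma adjusted p = 0.132), and the lowest were Zic1 at -0.08 and Pax6 at -0.06. List means were 0.06 to 0.19 on the Cstb-/- arrays and -0.25 to -0.08 on the wild type arrays. At P30 the medians of the oligodendrocyte and granule neuron lists were -0.12 and -0.02. That of the border macrophages was 0.23 with 9 of 10 genes higher. The mean of the 5 red blood cell genes at P30 was 0.33, -0.33 and 0.36 on Cstb-/- 1 to 3 and -0.26, 0.23 and -0.19 on wild type 1 to 3, high on the arrays where the choroid plexus genes were low. That of the ependyma and cilia list was -0.06, 0.19 and -0.12 and 0.04, 0.01 and 0.14, in the direction of the choroid plexus genes over a much smaller range. The part of any of these cells in the choroid plexus values was not tested.

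**Figure D4:**
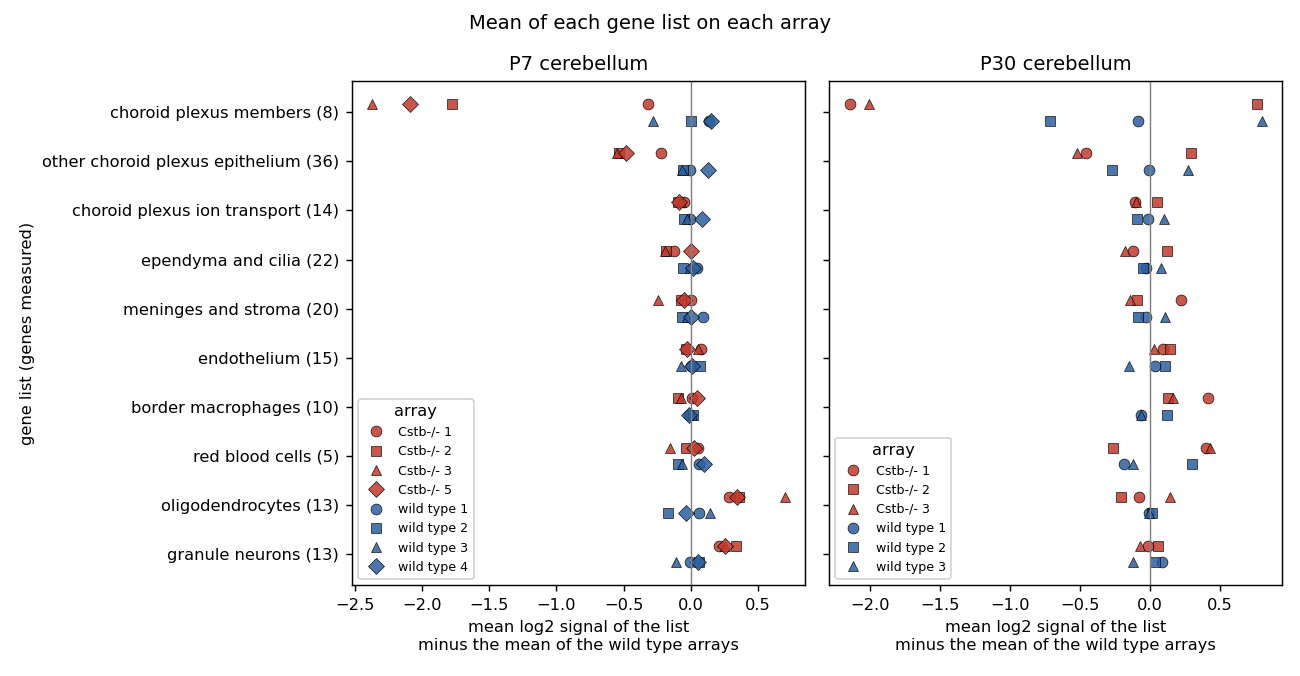
Mean log2 signal of each gene list on each array, minus the mean of the wild type arrays (red, Cstb-/-; blue, wild type; shape gives the array), in the P7 cerebellum (left) and the P30 cerebellum (right), with the number of genes measured in parentheses. The 8 choroid plexus genes reach -2.37 at P7 and -2.15 at P30, the further epithelial genes are low on the same Cstb-/- arrays over a smaller range, and the other lists stay within 0.70 of 0.

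Among all other genes, those whose values over the 8 P7 arrays most resembled the mean of the 8 choroid plexus genes, by Pearson's r, were Sostdc1 (0.99), Fxyd1 (0.99), Mlf1 (0.98), Calml4 (0.98), Ecrg4 (0.98), Lbp (0.98), Tgfbi (0.97), Wls (0.97), Kcne2 (0.97) and Rcbtb2 (0.97). These 8 points share the split of the Cstb-/- arrays, so the correlation is a description. Without Cstb-/- 3 and 5, the 2 arrays farthest from the median, it was 0.90 to 0.99. Cstb-/- 2, with a choroid plexus mean of -1.53, was still among the arrays left, so this does not remove the split. Of the 10, Sostdc1, Calml4, Ecrg4, Lbp and Kcne2 were in the list of further epithelial genes, and Mlf1 was in that of ependyma and cilia. Over the 6 P30 arrays these 6 had r between 0.91 and 0.99 with the choroid plexus mean, whereas Fxyd1 had 0.50, Wls 0.31, Tgfbi 0.06 and Rcbtb2 0.00. Sostdc1, a secreted antagonist of BMP and WNT signals, showed the likeness at both ages, with -0.08, -1.83, -1.94 and -2.14 on P7 Cstb-/- 1, 2, 3 and 5 and 0.16 to 0.86 on the wild type arrays. At P30 it read -0.86, 1.49 and -1.01 on Cstb-/- 1 to 3 and 0.34, -0.34 and 1.58 on wild type 1 to 3. Rcbtb2 ranged over only 0.21 log2 units at P7.

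In the granule cell cultures the choroid plexus genes showed no shared shift. The median over the 8 genes was -0.13 beside 0.00 over all genes, 7 of the 13 probe sets were lower, and 0 passed the test (adjusted p under 0.01), which 2.54% of all probe sets did. At an unadjusted p under 0.05, 2 were lower (Folr1 and Kcnj13) and 2 higher (Aqp1 and Otx2), against 31.6% of all probe sets in either direction, and the methods' t-test called 0 under either adjustment (0.0711% and 1.39% of all).

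Ttr varied among the wild type cultures. Its probe set 1454608_x_at read 0.03, -0.49 and 0.00 on Cstb-/- 1 to 3 and -1.79, -5.69, 0.45 and 0.50 on wild type 4, 5, 7 and 8. Wild type 5, and to a lesser degree wild type 4, had far less Ttr signal than the other 5 cultures of either genotype. The other 3 probe sets gave -5.95 to -2.61 on wild type 5, -2.02 to -1.05 on wild type 4, and -1.07 to 1.02 elsewhere. The differences, 0.49 to 1.48 with SEs of 0.81 to 1.36, had limma adjusted p-values of 0.427 to 0.694. Otx2 also had its lowest values on wild type 5 and 4, at -0.47 and -0.25, and the other choroid plexus genes did not. Folr1 read 0.00 and 0.23 on wild type 4 and 5, beside 0.18 and 0.00 on 7 and 8.

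Folr1 and Kcnj13 were below all wild type arrays on all 3 Cstb-/- cultures, as were 9.33% of all probe sets, but by little, at -0.26 (SE 0.09, limma adjusted p = 0.0922) and -0.19 (SE 0.08, limma adjusted p = 0.153). Otx2 read 1.18, -0.06 and 0.52 against -0.25, -0.47, 0.00 and 0.00, and Aqp1 read 0.28, 0.00 and 0.30 against 0.09, -0.17, -0.10 and -0.45. Both overlapped between the genotypes, with differences of 0.72 (SE 0.26, limma adjusted p = 0.107) and 0.35 (SE 0.14, limma adjusted p = 0.121). The 2 Kl, 2 Clic6 and the Slc4a5 probe sets differed by -0.32 to -0.03. The meninges and stroma list, by contrast, had 10 of 20 genes called higher in these cultures (4.56% of all genes were called), with list means of 0.59 to 0.67 on the Cstb-/- arrays and -0.19 to -0.02 on the wild type arrays, and its part in the choroid plexus values was not tested.

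**Figure D5:**
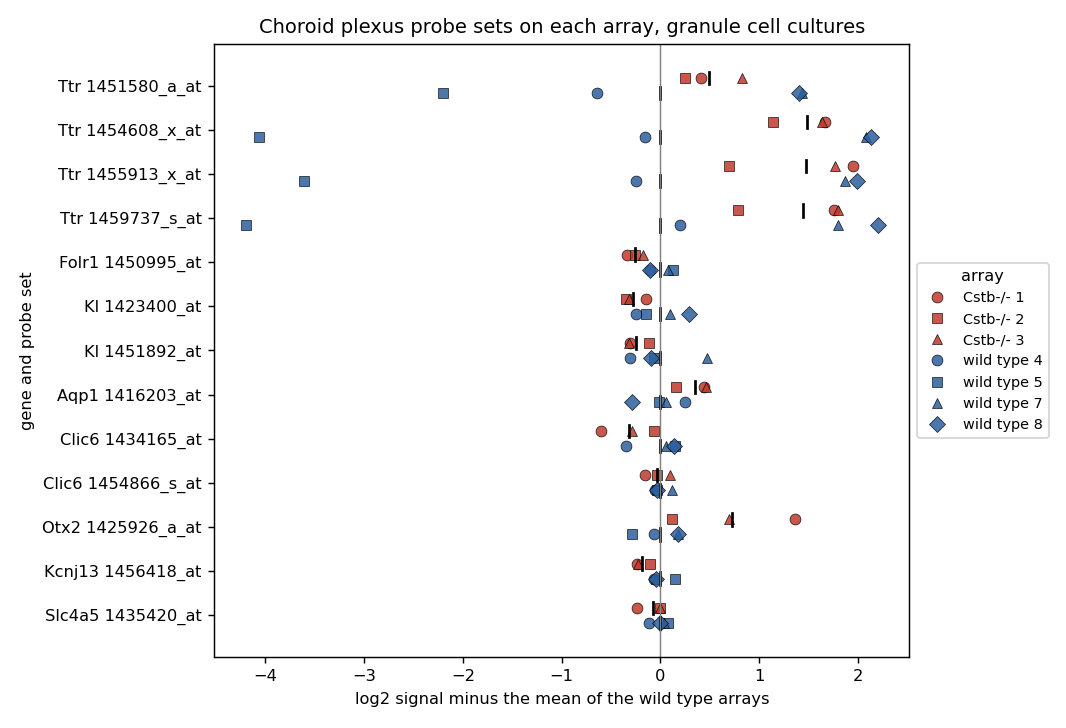
The 13 choroid plexus probe sets in the granule cell cultures, 1 point per array (red, 3 Cstb-/-; blue, 4 wild type), as log2 signal minus the mean of the wild type arrays. Ttr spreads widely among the wild type cultures, with wild type 5 (square) lowest, and the other probe sets lie within 1.36 of 0 on every array.

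Set against the cultures in 1 fit, the Cstb-/- difference of Aqp1 at P7 was lower by 2.26 (SE 0.79, limma adjusted p = 0.0460), the 1 probe set of the 13 that passed, where 18.7% of all probe sets did. At an unadjusted p under 0.05, 9 of the 13 passed, beside 35.1% of all. The others had limma adjusted p-values of 0.0570 and above, among them Clic6 1454866_s_at at -2.26 (SE 0.83) and Ttr 1455913_x_at at -5.71 (SE 2.17).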

How the data were processed

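RNA was measured on 21 Affymetrix arrays. Per the labels and methods, the authors made RMA values on the log2 scale, and the deposited log2 values proved to be centred on each probe set's median within each experiment, over all 45101 probe sets. From these, 64 control probe sets were left out. Of the rest, 34945 had 1 gene symbol in the platform annotation, 932 several and 9160 none. Cstb-/- was compared with wild type within each experiment with limma 3.58.1 (R 4.3.3; lmFit, eBayes, Benjamini-Hochberg over 45037 probe sets), at the methods' thresholds of a fold of 1.3 and adjusted p under 0.05, or 0.01 for granule cells. Gene values are means of a gene's probe sets. The test was checked on simulated data. In the cultures 51.3% of probe sets had tied values, against 2.86% at P7 and 2.10% at P30. The number of arrays limits the precision. Members and lists were chosen with earlier results of these data known. Named genes were all members, Cstb, the genes with the highest and lowest P7 differences of each list (2 each way), and the 10 genes most like the members' mean at P7. Xist was added after its values were seen, as a check of labelled sex. Motifs were searched in RefSeq windows (GRCm38.p6) and figures drawn with Python 3.11.15. Alternatives were another test, scaling, weights, a joint fit, labelled sex, the replicate number as a block and leaving out each array.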

Additional observations from a re-analysis of the deposited data

Results flagged for a closer look

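A single array lay far from the rest of its group (by Dixon's criterion) in 6 of the 39 combinations of probe set and group examined. The groups examined were P7 Cstb-/-, P7 wild type and the wild type cultures, so no P30 array and no Cstb-/- culture was checked. Chance would give about 1 in 20 if the combinations were independent. They were not, since they share transcripts and arrays. The share of all probe sets flagged in this way is not given here, so the count is a description. P7 Cstb-/- 1 was the far array for Aqp1, at 0.24 where the other 3 Cstb-/- arrays lay between -2.13 and -2.05, for Clic6 1454866_s_at, at -0.24 beside -2.66 to -2.27, and for Kcnj13, at -0.032 beside -2.07 to -1.78. P7 wild type 3 was the lowest for Aqp1, at -0.24 beside 0.56 to 0.65. In the cultures, wild type 7 was the highest for Clic6 1454866_s_at, at 0.15 beside -0.02 to 0.00. Wild type 5 was the highest for Kcnj13, at 0.21 beside 0.00 to 0.02. Both gaps were small against those at P7, and tied values were common in the cultures. The difference between genotypes differed between P7 cerebella and granule cell cultures for Aqp1, by -2.26 (limma over all arrays, adjusted p = 0.0460). It was the 1 choroid plexus probe set of 13 that passed, where 18.7% of all probe sets did. Passing was thus not particular to these genes.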

How the results depend on the processing

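Of the differences of the 13 choroid plexus probe sets, the signs held under the alternatives run except as follows. Kl 1451892_at at P7 was -0.018 with the replicate number as a block. At P30, with labelled sex as a covariate, which amounts to leaving out Cstb-/- 1, Aqp1 was 0.11 and Otx2 0.094, and leaving out 1 array Aqp1 ranged from -1.21 to 0.24 and Otx2 from -0.70 to 0.11, above 0 without Cstb-/- 1 or wild type 3. In the cultures, leaving out 1 array, Ttr 1451580_a_at ranged from -0.24 to 0.97 and Clic6 1454866_s_at from -0.095 to 0.032. Of the choroid plexus probe sets, 0 were called at P7, 5 by the methods' t-test adjusted over the probe sets past the fold, 4 with labelled sex and 0 to 9 leaving out 1 array, and at P30 0 to 6 leaving out 1 array. The median of the 8 genes in the cultures ranged from -0.17 to -0.037 leaving out 1 array. The count of all called probe sets at P7, 3, became 1 and 203 with the methods' t-test (over all probe sets and over those past the fold), 17 with array weights, 16 in 1 fit over all experiments, 1108 with labelled sex and 3 to 38 leaving out 1 array. At P30, 65 became 1, 210, 226, 107, 29 and 29 to 76 in the same order. In the cultures, 1144 became 32, 628, 2828 and 5725, and 302 to 2685 leaving out 1 array. The replicate number as a block gave 2 calls at P7 and 49 at P30, with 0 choroid plexus probe sets in either. Same-numbered arrays had deviations correlated by 0.01 to 0.17 at P7 and by -0.18 to -0.03 at P30, so the numbers were not taken as pairs, and the cultures share none. The causes of these shifts were not tested.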
